A study of Mus musculus with 6 samples.

Results

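ChREBP, the carbohydrate response element binding protein encoded by Mlxipl, was followed with 7 of its glucose-sensing target genes, Txnip, Arrdc4, Khk, Tkfc, Gpd1, Pnpla3 and Fgf21, in mouse liver. The members were all probe sets that the platform annotation names with exactly 1 of these 8 symbols. These were 13 of the 22626 probe sets on the array that are not controls, and 8 of 12393 genes named there. Mlxipl, Khk, Tkfc, Pnpla3 and Fgf21 had 1 probe set each, Txnip and Arrdc4 had 2, and Gpd1 had 4.

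The livers came from 6 male KK/H1J mice, an obese strain with polygenic type 2 diabetes, aged 12 to 14 weeks and weighing about 35 g. In the BPD group, mice 23, 28 and 36 had received through the tail vein an adenovirus (BPD) that carries PFK-2/FBPase-2, the bifunctional enzyme of fructose 2,6-bisphosphate turnover, in a bisphosphatase deficient form. In the GFP group, mice 22, 29 and 31 had received a control adenovirus with green fluorescent protein (GFP) at the same stated dose. On day 7, with food freely available to both groups, the livers were removed and the RNA of each was hybridised to its own one-colour array. Both groups thus carry an adenovirus, no liver without virus was analysed here, and the sources used here do not name the promoter of either insert. The comparison asks how ChREBP and its targets respond in livers given an enzyme form that makes fructose 2,6-bisphosphate without degrading it.

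ChREBP is a transcription factor of the basic helix-loop-helix leucine zipper class that is activated by sugar phosphates and binds DNA together with its partner Mlx. It recognises the carbohydrate response element, or ChoRE, which is built of paired E-box-like motifs at a fixed spacing. In the liver it switches on genes that handle incoming sugar, from fructose phosphorylation and glycolysis to fatty acid synthesis. Txnip and Arrdc4, which encode alpha-arrestins that restrain glucose uptake, are its classical glucose-sensing targets and also respond to the related factor MondoA (Mlxip).

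Start-site windows of 7 of the 8 genes, 8 windows in all, were found in the RefSeq promoter table (build GRCm38.p6). Each covers 300 bases, 250 before and 50 after an annotated start, and is printed 5′ to 3′ on the strand of its gene. The windows printed here are those of genes that moved up (Txnip, Fgf21) and down (Khk, Mlxipl), and of Arrdc4, the close relative of Txnip that did not pass the test. Capitals mark the E-box CACGTG, the ChoRE with both motifs in the same orientation (CACGNG, any 5 bases, CACGNG), the ChoRE with the second motif inverted (CACGNG, any 5 bases, CNCGTG) and, in Fgf21 alone, the CARE element TGATGNAAN, which ATF4 binds. All letters were searched on both strands.
Txnip, chr3:96557707-96558006, plus strand: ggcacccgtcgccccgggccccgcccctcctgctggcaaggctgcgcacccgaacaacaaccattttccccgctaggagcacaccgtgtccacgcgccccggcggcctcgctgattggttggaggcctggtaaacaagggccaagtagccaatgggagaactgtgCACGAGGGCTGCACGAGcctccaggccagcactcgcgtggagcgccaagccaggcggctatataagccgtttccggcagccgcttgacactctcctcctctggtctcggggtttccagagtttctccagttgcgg
Arrdc4, chr7:68749189-68749488, minus strand: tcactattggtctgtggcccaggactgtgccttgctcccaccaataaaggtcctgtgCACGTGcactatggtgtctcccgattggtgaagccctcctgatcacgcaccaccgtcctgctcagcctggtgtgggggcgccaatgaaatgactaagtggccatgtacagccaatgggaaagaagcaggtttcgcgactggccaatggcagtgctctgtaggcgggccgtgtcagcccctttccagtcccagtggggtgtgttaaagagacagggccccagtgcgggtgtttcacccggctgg
Fgf21, chr7:45615441-45615740, minus strand: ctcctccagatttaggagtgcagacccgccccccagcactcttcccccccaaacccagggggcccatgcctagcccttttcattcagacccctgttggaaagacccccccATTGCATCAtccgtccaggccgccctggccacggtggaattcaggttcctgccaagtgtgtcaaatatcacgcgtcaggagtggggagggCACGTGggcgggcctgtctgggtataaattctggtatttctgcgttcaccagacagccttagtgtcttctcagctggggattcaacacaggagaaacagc
Khk, chr5:30921309-30921608, plus strand: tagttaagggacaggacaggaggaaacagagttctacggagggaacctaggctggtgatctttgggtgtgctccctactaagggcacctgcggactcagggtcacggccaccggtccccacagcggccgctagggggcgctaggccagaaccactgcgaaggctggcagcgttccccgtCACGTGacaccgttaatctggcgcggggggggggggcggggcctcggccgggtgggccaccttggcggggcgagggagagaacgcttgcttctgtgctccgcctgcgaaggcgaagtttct
Mlxipl, chr5:135089640-135089939, plus strand: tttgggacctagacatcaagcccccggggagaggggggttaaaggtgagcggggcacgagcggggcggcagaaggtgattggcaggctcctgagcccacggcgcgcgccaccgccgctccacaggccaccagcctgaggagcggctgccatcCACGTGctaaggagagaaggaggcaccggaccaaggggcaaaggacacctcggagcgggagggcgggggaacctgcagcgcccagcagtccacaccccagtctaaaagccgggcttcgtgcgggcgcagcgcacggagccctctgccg

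The Txnip window held the only direct ChoRE among the members, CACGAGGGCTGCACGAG, starting 85 bases before the start site. This form occurs in 16 of all 32851 windows of the same length, or 0.0487%. The inverted form was in none of the member windows and in 0.0457% of all windows. Among 15 of the further target genes described later that had windows, Pklr, the liver pyruvate kinase gene, held the inverted form. The plain E-box stood in 4 member windows, those of Arrdc4, Fgf21, Khk and the upstream Mlxipl start, and in 7.15% of all windows. It was found in 0 of the 15 further target genes with windows, and so was the direct ChoRE. The Fgf21 window also had 1 match to the CARE, on the strand opposite to the gene, a motif found in 3.95% of all windows. CCAAT boxes were present in 5 member windows against 37.4% of all, with 6 matches in Arrdc4. The direct repeat of AGGTCA with 1 base between, bound by PPAR alpha, was in none of the 8 windows and in 0.0396% of all. The inverted ChoRE can overlap an E-box. These matches describe letters in short windows only.

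Values are given first as the deposited MAS5 signal, the summary that the array software makes for each probe set on a linear scale. Differences are BPD minus GFP on the scale log2(signal + 16.3), after each array was centred on its own median, with the standard error (SE) of the limma fit. They understate changes of dim probe sets. A difference is called where the limma p-value, adjusted over all 13575 probe sets bright enough to test, is under 0.05. Of the 13 member probe sets 11 were tested. The filter removed 1 probe set of Arrdc4 and 1 of Gpd1. By this rule 2 of the 11 rose, where 8.29% of all tested probe sets rose, and 5 fell, where 20.3% of all fell. Fgf21 and 1 probe set of Txnip rose, and Mlxipl, Khk, Tkfc and 2 probe sets of Gpd1 fell, while Arrdc4 and Pnpla3 did not pass. The GFP mean of Fgf21 was under the filter, so its probe set was tested only because of its level in the BPD livers. Without the filter 2 of the 13 were called higher, against 5.27% of all, and 4 lower, against 10.8% of all.

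**Figure D1:**
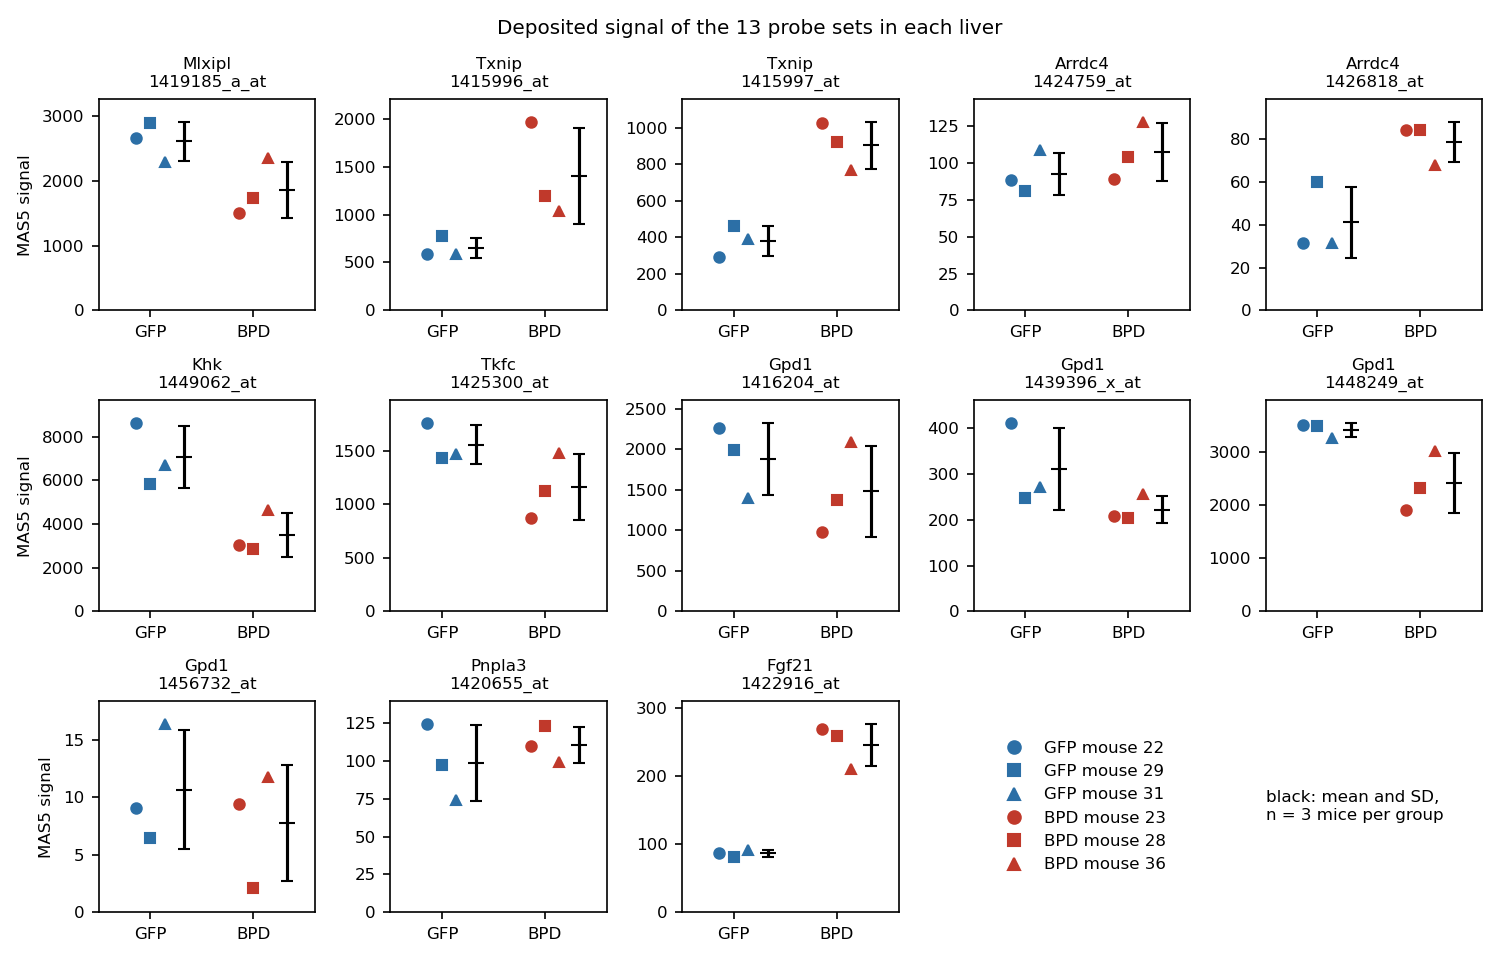
Deposited MAS5 signal (vertical axes, linear, from 0) of each of the 13 probe sets in the 3 GFP and 3 BPD livers, 1 symbol per mouse, with the group mean and SD (n = 3) in black. Both Txnip probe sets, Fgf21 and Arrdc4 1426818_at lie higher in every BPD liver than in any GFP liver, as do 22% of all probe sets. Khk and Gpd1 1448249_at lie lower in every BPD liver, as do 12.2% of all.

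The scaling between arrays bears on the size of every difference given here, and on the direction of some. The arrays shared a trimmed mean signal of 500 as deposited, but their medians ran from 174 to 197 in BPD and from 135 to 157 in GFP livers. The median tested probe set therefore differed by -0.21 after centring, by 0.10 as deposited and by -0.06 after quantile normalization, and the members were compared on all of these scales. As deposited, 3 of 11 member probe sets rose (16.7% of all) and 1 fell (9.68%), out of 26.4% of all called. After quantile normalization 3 rose (12.4% of all) and 1 fell (12%), out of 24.4% called. Groups that did not overlap were seen with BPD higher in 3 of the 11 on each scale, against 12.7%, 27.1% and 20.2% of all tested probe sets after centring, as deposited and after quantile normalization. Fgf21, which passed the filter only through its BPD level, is among the higher ones in each of these counts. With BPD lower they were seen in 5, 2 and 2 of the 11, against 34%, 16.5% and 24.2% of all. The log2 ratios of 3' to 5' signal for the Gapdh controls ran from -0.44 to -0.21 in BPD and from -0.35 to -0.15 in GFP livers, so the groups overlapped. The RNA of the introduced enzyme could not be checked, since Pfkfb1 was not analysed here.

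Txnip, which binds thioredoxin and promotes removal of glucose transporters from the cell surface, was higher in the BPD livers. With probe set 1415997_at the signal was 1025, 924 and 768 in BPD mice 23, 28 and 36, and 295, 460 and 389 in GFP mice 22, 29 and 31. Every BPD liver lay above every GFP liver, and the means were 906 ± 129 and 381 ± 82.8 (SD, n = 3 each). The difference was 0.92 ± 0.18 (SE), or 1.90-fold after centring (limma adjusted p = 0.0063). It was 1.22 as deposited and 1.08 after quantile normalization. It passed the test under every alternative run, with adjusted p from 0.00017 to 0.026.

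The other Txnip probe set, 1415996_at, gave signals of 1969, 1190 and 1036 in the BPD and 593, 773 and 593 in the GFP livers. The groups again did not overlap, but BPD mouse 23 stood far above the other two. The difference of 0.73 ± 0.25 just missed the threshold after centring (limma adjusted p = 0.052). It passed on the deposited scale (1.03, adjusted p = 0.016) and after quantile normalization (0.97, adjusted p = 0.026). Without BPD mouse 23 it was 0.43 (adjusted p = 0.12). Both probe sets were higher on every scale used, while the size of the second rested in part on mouse 23.

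Fgf21, a hormone that the liver releases and that is under the control of ChREBP, PPAR alpha and ATF4, rose as well. Its signal was 269, 259 and 211 in the BPD livers and 87.7, 81.4 and 91.3 in the GFP livers. The GFP livers lay close together and far below the lowest BPD liver, with means of 246 ± 31.1 and 86.8 ± 4.99 (SD, n = 3 each). The difference was 1.04 ± 0.19, or 2.06-fold after centring (limma adjusted p = 0.0048), and the deposited mean signals differed 2.84-fold. It was 1.34 as deposited and passed under every alternative run, with adjusted p from 0.00016 to 0.025. The GFP mean of Fgf21 was under the brightness filter, so this probe set was tested only because of its level in the BPD livers. Without the filter the difference was also called (adjusted p = 0.012), where 5.27% of all probe sets rose.

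Arrdc4, the alpha-arrestin most like Txnip in its control by glucose, did not pass the test. Probe set 1424759_at had signals of 89.4, 104 and 128 in the BPD and 88.3, 81.3 and 109 in the GFP livers. The groups overlapped, with a difference of -0.12 ± 0.24 and a 95% confidence interval from -0.66 to 0.41 (limma adjusted p = 0.72). The sign was positive on the deposited scale (0.18, adjusted p = 0.61). The dimmer probe set 1426818_at was too dim to test. Its deposited signals were 84.3, 84.3 and 68.0 in the BPD and 31.7, 60.3 and 31.6 in the GFP livers. These did not overlap as deposited, but after centring BPD mouse 36 lay just below GFP mouse 29. Without the filter its difference was 0.46 ± 0.25 (adjusted p = 0.23). The interval of the brighter probe set leaves room for a change in either direction.

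Khk encodes ketohexokinase, which phosphorylates fructose and so opens fructose breakdown. Its difference was the most negative among the tested member probe sets. Its signal was 3023, 2841 and 4651 in the BPD livers and 8647, 5856 and 6706 in the GFP livers. No BPD liver reached the lowest GFP liver, and the means were 3505 ± 997 and 7070 ± 1431 (SD, n = 3 each). The difference was -1.33 ± 0.25, which is 2.51-fold lower after centring (limma adjusted p = 0.0053). It was -1.03 on the deposited scale (adjusted p = 0.011) and -0.82 after quantile normalization (adjusted p = 0.024). Leaving out single mice gave differences from -1.57 to -1.13, all called.

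Tkfc encodes triokinase, which phosphorylates the glyceraldehyde that fructose breakdown yields. Its signal was 869, 1127 and 1484 in the BPD and 1766, 1435 and 1476 in the GFP livers. BPD mouse 36 lay among the GFP livers and the other BPD livers below them, and after centring the groups did not overlap. The difference of -0.75 ± 0.22 was called after centring (limma adjusted p = 0.033). It was not called on the deposited scale (-0.45, adjusted p = 0.13) or after quantile normalization (-0.46, adjusted p = 0.13). Leaving out BPD mouse 23 or 28, or GFP mouse 22 or 31, ended the call too, with adjusted p of 0.10, 0.11, 0.11 and 0.065.

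Gpd1, the cytosolic glycerol 3-phosphate dehydrogenase, links glycolysis to the glycerol backbone of triglycerides. Its brightest probe set, 1448249_at, had signals of 1908, 2321 and 3024 in the BPD and 3518, 3493 and 3278 in the GFP livers. All BPD livers were below all GFP livers, with BPD mouse 36 nearest to them. The difference was -0.83 ± 0.19 (limma adjusted p = 0.012). It narrowly missed the threshold on the deposited scale (-0.53, adjusted p = 0.051) and without BPD mouse 28 (adjusted p = 0.051), and missed it after quantile normalization (-0.38, adjusted p = 0.15).

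The other 3 Gpd1 probe sets gave 1 call. Probe set 1439396_x_at was called by a small margin (-0.73 ± 0.24, limma adjusted p = 0.049) and lost the call under 10 of 16 alternatives, with 1 more turning its sign. Its suffix marks probes that can match other transcripts. Probe set 1416204_at was not called (-0.69 ± 0.29, adjusted p = 0.10), with 2090 in BPD mouse 36 and 1399 in GFP mouse 31. It was called without BPD mouse 36 (-0.99, adjusted p = 0.016). Probe set 1456732_at was too dim to test, with signals from 2.12 to 16.4 in all livers.

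Pnpla3, a lipid droplet lipase of the patatin family that carbohydrate feeding induces, did not pass. Its signal was 110, 123 and 99.2 in the BPD and 125, 97.0 and 74.1 in the GFP livers. The groups overlapped and the difference was -0.14 ± 0.24 (95% confidence interval -0.68 to 0.41, limma adjusted p = 0.69). The sign was positive on the deposited scale (0.16). Probe sets of Pnpla3 and Arrdc4 lay near the brightness filter, which limits what could be seen in them.

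Mlxipl itself was lower after centring. Its signal was 1495, 1731 and 2344 in BPD mice 23, 28 and 36, and 2651, 2887 and 2285 in GFP mice 22, 29 and 31. BPD mouse 36 lay just above GFP mouse 31 as deposited, and after centring all BPD livers lay below all GFP livers. The means were 1857 ± 438 and 2607 ± 303 (SD, n = 3 each). The difference was -0.81 ± 0.20, or 1.75-fold lower (limma adjusted p = 0.016). It kept its sign but not its call on the deposited scale (-0.50, adjusted p = 0.075) and after quantile normalization (-0.42, adjusted p = 0.13). Leaving out BPD mouse 23 or 28, or GFP mouse 22, also ended the call, with adjusted p of 0.054, 0.066 and 0.056. Mlxipl is transcribed from alternative starts that yield different ChREBP isoforms. With 1 probe set these isoforms were not told apart.

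**Figure D2:**
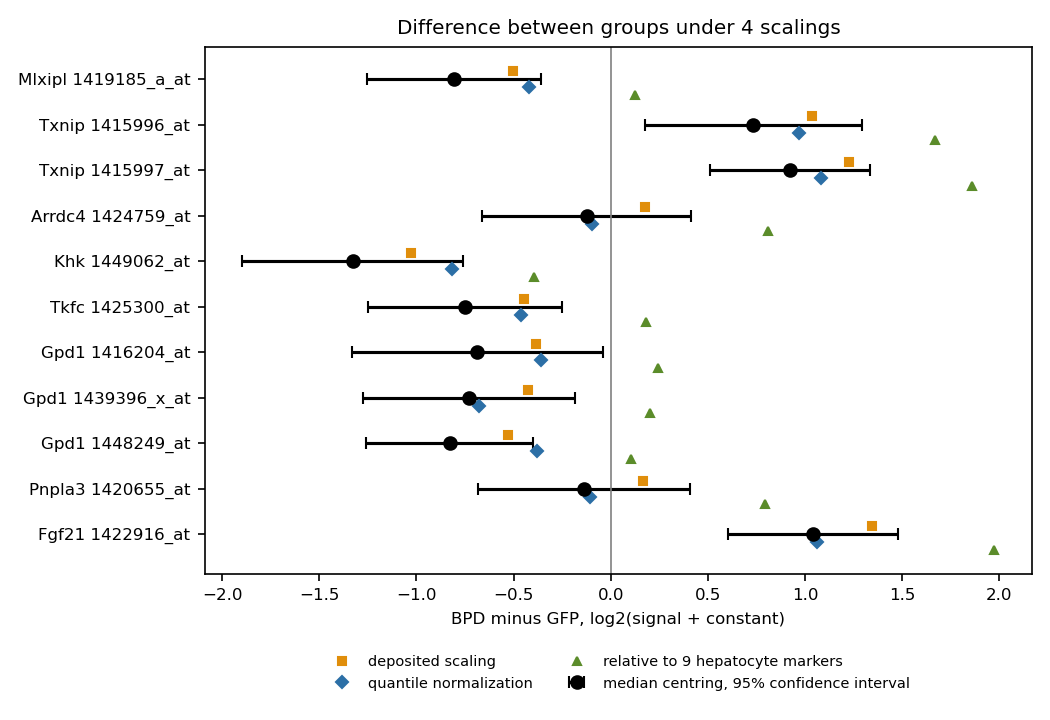
Difference between BPD and GFP livers (horizontal axis, log2 of signal plus constant) for the 11 tested probe sets, as black points with 95% confidence intervals after median centring and as coloured points under 3 other scalings. Txnip and Fgf21 stay to the right of 0 and Khk to the left under all 4, while Mlxipl, Tkfc and Gpd1 cross 0 only relative to hepatocyte markers. On that scale the median tested probe set was at 0.73.

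The livers differed in their cell type markers, and these values stand beside each member result. Hepatocyte markers were bright in every array, among them albumin (Alb) with signals of 14784 to 21340. All 9 hepatocyte markers with a probe set fell after centring, with a median difference of -0.83 against -0.22 for all 8151 genes. As deposited 6 of the 9 were called lower (median -0.53 against 0.08), and after quantile normalization 4 of the 9, Cps1, Otc, Hpd and Cyp2e1 (median -0.18 against -0.06), where Alb had a positive sign (0.09, limma adjusted p = 0.42). The size of this marker shift thus depends on the scaling. A scale built on these markers subtracts each array's own marker mean, so centring on array medians does not change it. It sets the marker mean to 0 in every liver, although several markers were called lower on each scale above. Their summed signal was 104431 to 112443 in BPD livers and 155168 to 167515 in GFP livers. Of 10 macrophage markers 7 were tested and 5 rose, where 8.75% of all genes rose. The other 2, Csf1r (1.19 ± 0.46) and Clec4f (-0.58 ± 0.58), were not called after centring (limma adjusted p = 0.080 and 0.47). The summed signal of all 10 ran from 9808 in BPD mouse 36 to 20401 in the BPD livers and from 3076 to 8568 in the GFP livers. Marco, a receptor of resident macrophages, was near 0 in all livers, with signals up to 20.2. Of 10 neutrophil markers 8 had a probe set, 5 were tested and 4 rose, against the same 8.75%. The GFP means of S100a8 (85.6), S100a9 (61.5) and Ltf (64.2) were under the brightness filter. These genes, all called, were thus tested only because of their level in the BPD livers. Summed signals of the 8 were 1821 to 8239 in BPD and 479 to 805 in GFP livers, again lowest among BPD livers in mouse 36. Of 5 adipocyte markers 3 had a probe set and none was bright enough to test, with sums of 130 to 134 in BPD livers and 33.9 to 137 in GFP livers. Lep was near 0 in all livers, with signals up to 9.10. Fewer hepatocytes and less RNA per hepatocyte cannot be told apart in bulk tissue. The part of the macrophage and neutrophil markers in the member results was not tested, and the hepatocyte markers were used as a scale of their own.

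When each array was centred on the mean log2 value of its 9 hepatocyte markers instead of its median, Mlxipl, Tkfc and Gpd1 no longer differed in the negative direction. On this scale the difference was 0.13 ± 0.19 for Mlxipl, 0.18 ± 0.21 for Tkfc and 0.11 ± 0.18 for Gpd1 probe set 1448249_at (limma adjusted p = 0.55, 0.44 and 0.60). Khk remained negative at -0.39 ± 0.22 but was not called (adjusted p = 0.13). Fgf21 was at 1.97 ± 0.19 and the Txnip probe sets at 1.86 ± 0.18 and 1.67 ± 0.23 (adjusted p = 0.00016, 0.00017 and 0.00050). Arrdc4 1424759_at (0.81) and Pnpla3 (0.80) were called higher on this scale (adjusted p = 0.015 and 0.020). Most of the array moves up when hepatocyte markers are set to 0, and 73.3% of all tested probe sets were called, 71% higher and 2.25% lower. The median tested probe set stood at 0.73 on this scale. Mlxipl, Tkfc, Gpd1 and Khk thus lay below a typical probe set, and Arrdc4 1424759_at and Pnpla3 lay near it. The members had 5 of 11 higher, a smaller share than the array as a whole, and 0 lower.

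Ratios between genes within 1 liver need no scaling between arrays. The log2 ratio of Txnip 1415997_at to Mlxipl was -0.55, -0.91 and -1.61 in the BPD and -3.17, -2.65 and -2.55 in the GFP livers. That of Fgf21 to Mlxipl was -2.48, -2.74 and -3.48 against -4.92, -5.15 and -4.65. Both ratios were higher in every BPD liver, by 1.77 and 2.01 on average, and in both BPD mouse 36 was nearest to the GFP livers. The ratio of Khk to Mlxipl was lower in the BPD livers by a mean of 0.52, and the groups were separated only narrowly, at 1.015 in BPD mouse 23 and 1.021 in GFP mouse 29. By contrast, the mean ratio of Gpd1 1448249_at to Mlxipl was 0.38 ± 0.04 in the BPD livers and 0.40 ± 0.12 in the GFP livers (SD over 3 mice). For Tkfc it was -0.69 ± 0.08 and -0.74 ± 0.23, so the ratios of these genes overlapped between the groups. The ratio of Arrdc4 1424759_at to Mlxipl was higher in every BPD liver, by 0.71 on average. That of Pnpla3 was higher by 0.70 with overlap between the groups. After centring Mlxipl itself differed by -0.81 and the median tested probe set by -0.21, so a typical probe set also rose against Mlxipl. The differences of Arrdc4 1424759_at (-0.12) and Pnpla3 (-0.14) lay near that median. The share of all probe sets with separated ratios to Mlxipl was not counted. An exact permutation test of 3 livers against 3 cannot give a two-sided p below 0.1, so these ratios are given without one.

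**Figure D3:**
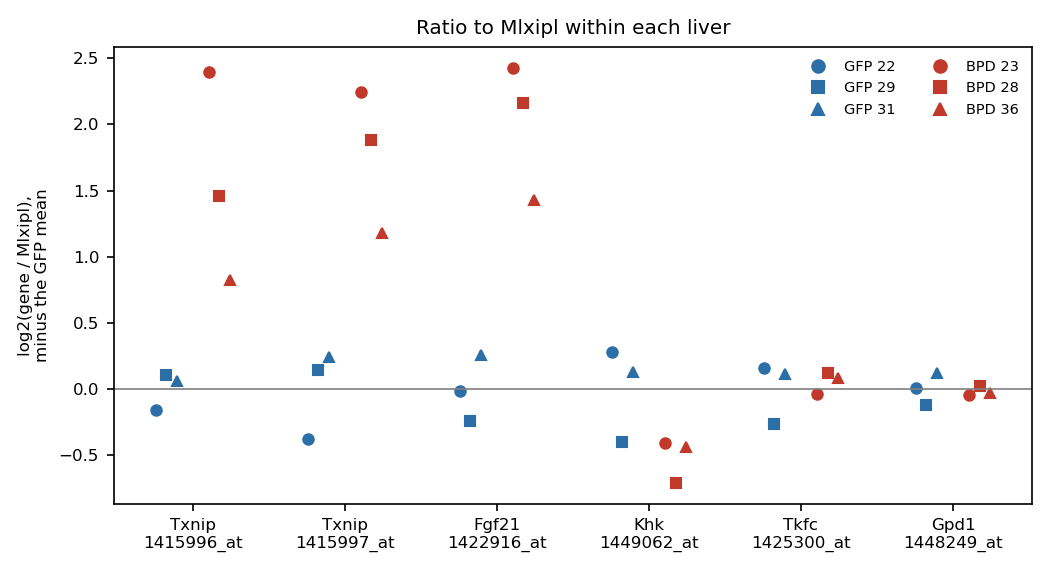
Log2 ratio of the signal of 6 member probe sets to that of Mlxipl within each liver (vertical axis), with the mean of the GFP livers set to 0 and 1 symbol per mouse. Txnip and Fgf21 lie above every GFP liver in all BPD livers, whereas Tkfc and Gpd1 overlap between the groups.

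The members also differed in how far single BPD livers moved. In all 7 called member probe sets BPD mouse 36 was the one nearest to the mean of the GFP livers. Among all 3885 called probe sets (28.6% of those tested) this mouse was nearest in 62.5%. For Mlxipl the distance from the GFP mean after centring was -1.03, -0.98 and -0.41 in mice 23, 28 and 36. For Khk it was -1.44, -1.70 and -0.84, and for Fgf21 it was 1.23, 1.01 and 0.88. Mouse 36 was thus close to the others in Fgf21 and far from them in Mlxipl.

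Among the 8151 genes, each taken by its brightest tested probe set, the genes with a profile most like Mlxipl were Slc23a1, Lman2 and Gpat4. Likeness was the root-mean-square distance between centred log2 profiles over the 6 livers, each gene taken relative to its own mean. It was 0.041 for Slc23a1, a vitamin C transporter, 0.059 for Lman2, a cargo receptor of the secretory pathway, and 0.060 for Gpat4, a glycerol 3-phosphate acyltransferase. Their own differences were -0.84 ± 0.21, -0.80 ± 0.22 and -0.77 ± 0.18. Gpd1 came 7th of 8150 at a distance of 0.075 and Tkfc 88th at 0.14, whereas Khk came 2546th at 0.35 and Fgf21 7592nd at 0.98. The genes most like Txnip, taken by probe set 1415996_at, were Pld3 (0.10), Hexa (0.11) and Sat1 (0.11). After centring Pld3 was called higher, while this Txnip probe set, Hexa and Sat1 were not called (limma adjusted p = 0.052, 0.12 and 0.056). Fgf21 was the member nearest to Txnip, at 0.31, but came only 338th of 8150 genes.

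Among other known targets of ChREBP, 19 of 20 listed genes were tested. After centring 14 fell, 0 rose and 5 did not pass, where 22.2% of all genes fell and 8.75% rose. Their median difference was -0.84, against -0.22 for all genes and -0.83 for the hepatocyte markers. The number called lower was 10 as deposited, 7 after quantile normalization and 4 relative to hepatocyte markers. Of all tested probe sets 9.68%, 12% and 2.25% fell on these scales. Relative to hepatocyte markers 5 of the targets were called higher, where 71% of all tested probe sets rose. Klf10 and Tm6sf2 were at 0.58 ± 0.23 and 0.35 ± 0.21, not called after centring (adjusted p = 0.089 and 0.22), but both were called higher as deposited (adjusted p = 0.026 and 0.034). Pklr, the liver pyruvate kinase that closes glycolysis, had signals of 503, 557 and 805 in the BPD and 2926, 1937 and 2403 in the GFP livers. The groups lay far apart, and the difference was -2.24 ± 0.25 (limma adjusted p = 6.5e-04), with all 3 of its probe sets called.

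Genes of fatty acid synthesis on this list were Thrsp, Fasn, Acacb, Acaca, Acly, Elovl6, Scd1 and Me1, all called lower after centring. Acaca was not called as deposited (limma adjusted p = 0.20), nor were Scd1 and Me1 after quantile normalization (adjusted p = 0.059 and 0.064). Thrsp, a small nuclear protein that promotes fatty acid synthesis, had signals of 1439, 1918 and 6081 in the BPD and 17917, 18076 and 15649 in the GFP livers. BPD mouse 36 kept several times the signal of the other BPD livers but stayed far below the GFP livers, and the difference was -3.04 ± 0.44. Fasn, the fatty acid synthase, and Acacb, an acetyl-CoA carboxylase found at mitochondria, differed by -2.02 ± 0.23 and -2.24 ± 0.33 (limma adjusted p = 7.4e-04 and 0.0017). The genes Pklr, Acacb, Acly, Fasn, Elovl6 and Thrsp fell under median centring, deposited scaling and quantile normalization alike, 6 of the 19. Relative to hepatocyte markers Pklr, Fasn, Thrsp and Acacb were still called lower, by -1.31, -1.09, -2.11 and -1.30.

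**Figure D4:**
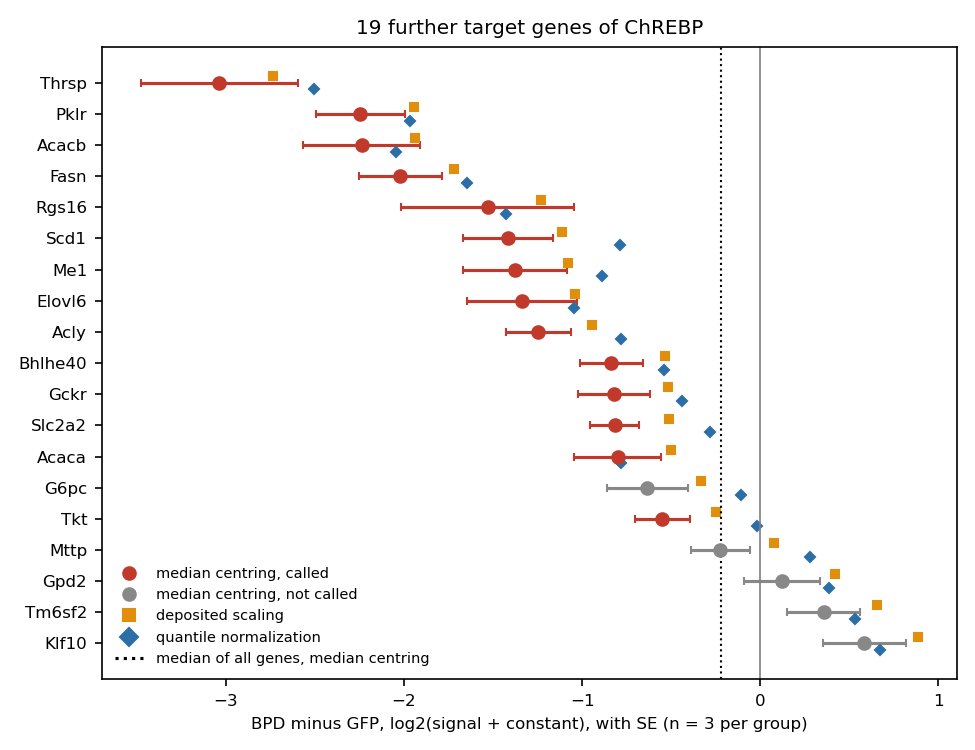
Difference between BPD and GFP livers (horizontal axis, log2 of signal plus constant) for 19 further ChREBP targets, as circles with SE after median centring (red where called) and as small symbols under the deposited scaling and quantile normalization. Thrsp, Pklr, Acacb and Fasn lie farthest to the left under all 3, and the dotted line marks the median of all genes at -0.22.

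Partners of ChREBP and their relatives were measured next. Of 11 genes of the Mlx and Max network 8 were tested, 2 fell and 0 rose, a share near the 22.2% of all genes that fell. Their median was -0.14 against -0.22 for all genes. Mlx, the obligate partner, had signals of 330, 365 and 312 in the BPD and 396, 400 and 358 in the GFP livers, so BPD mouse 28 lay above GFP mouse 31. Its difference of -0.49 ± 0.15 was called (limma adjusted p = 0.035), but not when any 1 mouse was left out, and its other probe set was at 0.11. The call was also lost as deposited (-0.19, adjusted p = 0.35) and after quantile normalization (-0.41, adjusted p = 0.054). Relative to hepatocyte markers Mlx was called higher (0.44, adjusted p = 0.026), but lay below the median tested probe set at 0.73. Mxi1, a Max partner that represses transcription, fell by 0.62 ± 0.17 (limma adjusted p = 0.026). Its call was lost as deposited (adjusted p = 0.12) and in 3 of 6 fits without 1 mouse, and relative to hepatocyte markers its sign was positive (0.32, adjusted p = 0.076). Myc was at 0.70 ± 0.29 and Mnt at -0.21 ± 0.21, neither called after centring, and Myc was called higher as deposited (adjusted p = 0.044). MondoA (Mlxip) was at 0.19 ± 0.19 (adjusted p = 0.48).

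Genes that work beside single members were also measured, in 4 short lists with 1 gene called lower in each. With 4 or 5 genes tested per list, these shares are near the 22.2% of all genes that fell. Among 5 tested of 8 alpha-arrestin and thioredoxin genes, Txnrd2, the mitochondrial thioredoxin reductase, fell by 1.22 ± 0.27 (limma adjusted p = 0.0093), and by 0.29 relative to hepatocyte markers (adjusted p = 0.28). The others, among them Txn1 (-0.16 ± 0.16), Txn2 (-0.39 ± 0.17) and Arrdc1 (-0.11 ± 0.15), did not pass after centring. After quantile normalization this Txn1 probe set was called higher (0.41, adjusted p = 0.024), and a second probe set of Txn1 was called higher after centring at 1.45. Of 4 tested genes of fructose and glycerol phosphate use, Gpam, which acylates glycerol 3-phosphate, fell by 0.86 ± 0.16 (adjusted p = 0.0052). This call was lost after quantile normalization (adjusted p = 0.060), and the other kept probe set of Gpam was at -0.62 and not called. The fructose transporter Slc2a5 (-0.75 ± 0.29), Tpi1 (-0.28 ± 0.16) and the mitochondrial Gpd2 (0.12 ± 0.21) were not called.

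In the patatin family and its cofactor Abhd5, 1 of 5 tested genes fell, Pnpla7, a lysophospholipase, by 0.86 ± 0.18 (limma adjusted p = 0.0079). Pnpla8 (-0.61 ± 0.22), Pnpla6 (-0.26 ± 0.15) and Abhd5 (0.25 ± 0.14) did not pass, and Abhd5 was called higher on the deposited scale (adjusted p = 0.015). Of the receptors through which FGF21 and related hormones act, 1 of 4 tested fell, Fgfr4, by 0.87 ± 0.18 (limma adjusted p = 0.0068). The 4 kept probe sets of Fgfr4 ran from -0.87 to -0.42, and 2 of them were called lower. Fgfr1 was too dim to test. The co-receptor beta-klotho, Klb, was at -0.40 ± 0.20, Fgfr3 at -0.50 ± 0.19 and Fgfr2 at -0.18 ± 0.15, none of them called after centring. Relative to hepatocyte markers the differences of Gpam, Pnpla7 and Fgfr4 were 0.07, 0.08 and 0.06, where the median tested probe set was at 0.73.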

How the data were processed

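Liver RNA of 3 BPD and 3 GFP mice was measured on 6 arrays, 1 mouse per array. Groups and mouse numbers came from the sample titles. The deposited values are linear signal intensities, 1 for each probe set in each liver, made with MAS5 per the submitters' processing notes. Neither version, target value nor filter is named in the sources used here. Trimmed means of the deposited intensities (2% off each end) were near 500 on all arrays. Of 22690 probe sets 64 controls were left out.

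Signals were analysed as log2(signal + 16.3), the constant being 10% of the overall median, and centred on each array's median. Probe sets with a mean above the 40th percentile were kept, 13575 in all. Groups were compared with limma 3.58.1 in R 4.3.3 (lmFit, eBayes with intensity trend, two-sided, Benjamini-Hochberg over all kept probe sets), with 4 residual degrees of freedom. The number of arrays limits the precision.

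Names came from the platform annotation, of which 20351 of 20380 single-symbol probe sets matched the GRCm38.p6 gene table by Entrez identifier. A further 691 probe sets with several symbols and 1555 unnamed ones were named as no gene. The members and gene lists were chosen with earlier results of these data known. Named genes are the members, up to 4 genes of smallest p per list, and the 3 genes nearest in profile to Mlxipl and Txnip. Others (Mlxip, Klf10, Tm6sf2, Acly, Elovl6, Acaca, Scd1, Me1 and the markers) were named after their values were seen. Alternatives varied scaling, filter, constant, eBayes settings, array weights, an RNA quality covariate and single mice. The hepatocyte marker scale was added after seeing the data.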

Additional observations from a re-analysis of the deposited data

How the results depend on the processing

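The Txnip probe set 1415997_at, Fgf21 and Khk were called under every alternative run, except Khk relative to hepatocyte markers. As deposited, Mlxipl was at -0.50, Tkfc at -0.45, Gpd1 at -0.43 (1439396_x_at) and -0.53 (1448249_at), none called, and Txnip 1415996_at was called at 1.03. After quantile normalization the same probe sets stood at -0.42, -0.46, -0.68 and -0.38, and at 0.97, with the same calls. Relative to hepatocyte markers, a scale added after seeing the data, they stood at 0.13, 0.18, 0.20 and 0.11, and at 1.67, the last one called. On that scale Khk was not called (-0.39), and Arrdc4 1424759_at (0.81), Pnpla3 (0.80) and the dim Arrdc4 1426818_at (1.39) were higher. The median tested probe set stood at 0.73 there. Txnip 1415996_at was also called with the larger constant (0.75), robust eBayes (0.73) and the Gapdh covariate (0.91). Gpd1 1416204_at was called with array weights (-0.75) and the Gapdh covariate (-0.94). Gpd1 1439396_x_at lost its call without the filter (-0.73), without the intensity trend (-0.73), with the larger constant (-0.57) and with the Gapdh covariate (-0.78). Without single mice the differences ran from -1.01 to -0.69 for Mlxipl, 0.43 to 0.90 for Txnip 1415996_at, -0.96 to -0.59 for Tkfc, -0.99 to -0.46 for Gpd1 1416204_at, -0.92 to -0.47 for Gpd1 1439396_x_at and -1.02 to -0.70 for Gpd1 1448249_at. Member probe sets called lower numbered 5, and 1 as deposited, 1 after quantile normalization, 0 relative to hepatocyte markers and 1 to 6 without single mice. Those called higher numbered 2, and 5 relative to hepatocyte markers. Of all probe sets 1126 were called higher and 2759 lower, against 2265 and 1314 as deposited, 1686 and 1633 after quantile normalization, 9639 and 305 relative to hepatocyte markers, and 604 to 1206 and 1380 to 2765 without single mice (fewest without BPD mouse 28). Of the 44 tested genes of the 6 lists 0 were called higher and 20 lower. These were 4 higher as deposited, 1 higher and 11 lower after quantile normalization, 1 higher with the Gapdh covariate, 21 higher and 4 lower relative to hepatocyte markers, and 0 to 1 higher and 14 to 20 lower without single mice. The scaling between arrays moved most of these values, and its cause was not tested. No paired analysis was possible because the groups share no replicate numbers. Signals near the filter (about 100.7) limit what Arrdc4 and Pnpla3 can show.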
